A study of Homo sapiens with 2 samples.

Results

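The AP-1 family was read in KG1 cells through 10 genes: FOS, FOSB, FOSL1, FOSL2, JUN, JUNB, JUND, BATF, BATF3 and ATF2. The probe-gene table assigned 22 probe sets to these symbols alone, of 54675 probe sets in all and 41097 with 1 gene. KG1 is an established human line from an acute myeloid leukaemia and resembles early progenitor cells. In the group siRNA-Tbet an siRNA directed at T-bet (gene TBX21) was introduced by electroporation, 1.98 µg of it, and in the group siRNAc the same amount of a control siRNA. After 5 h, both groups received interleukin-18 at 10 ng/ml, and RNA was taken after 12 h of it. Each group was measured on 1 Affymetrix array, so no value has a replicate error and no p-value can be given. Both groups carried the siRNA transfection and the cytokine. A response to either of these shared treatments is therefore not analysed here.

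AP-1 is not 1 protein but a set of dimers. Each partner holds a basic region that contacts DNA and a leucine zipper that pairs it with another member. JUN proteins pair with themselves or with FOS proteins, while FOS proteins need a JUN partner, and such dimers read the AP-1 site TGANTCA. ATF2 pairs with JUN and reads the cyclic AMP response element (CRE) TGACGTCA and the related site TGACATCA in the promoter of JUN itself. BATF and BATF3 are small members that pair with JUN proteins and bind beside IRF4 or IRF8 in lymphocytes and dendritic cells. FOS and JUN are induced within minutes by MAP kinase signals, to which receptors of the interleukin-1 and interleukin-18 family couple.

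These DNA elements were searched for in promoters of the family, and those of JUN and JUND each held 1 of the sites that ATF2-containing dimers read. RefSeq promoters of build GRCh38.p14, running from 250 bases before the start to 50 after it, were matched by symbol for 7 of the 10 members; FOSL1, BATF3 and ATF2 were not matched. Both strands were searched. Stretches of 68 bases are shown 5′ to 3′ along the minus strand, on which both genes lie, with the matched site in capitals. The JUN stretch is chr1:58784077-58784144 and the JUND stretch is chr19:18281785-18281852.
JUN: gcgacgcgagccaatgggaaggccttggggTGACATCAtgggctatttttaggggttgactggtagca
JUND: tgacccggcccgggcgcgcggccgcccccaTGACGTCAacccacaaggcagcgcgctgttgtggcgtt
The site TGACATCA of JUN lies at positions -67 to -60 from the start. That sequence was found in 1 of the 7 promoters, against 2.61% of all 35116. The CRE TGACGTCA of JUND lies at -200 to -193, and was found in 1 of the 7 promoters, against 1.85% of all. The AP-1 site TGANTCA was found in 1 of the 7 promoters, just after the start of FOSL2, against 7.71% of all promoters. The T-box half-site GGTGTGA, the kind of sequence that T-bet reads, was found in 0 of the 7, against 3.45% of all. The letters are not in these windows, which says nothing on binding elsewhere.

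The transcript targeted by the siRNA was lower on its array. TBX21 read 1839 with siRNA-Tbet against 3581 with siRNAc, or 51.3% of control (log2 ratio -0.96). Signals are MAS5 intensities in arbitrary units on a scale common to both arrays. They are comparable between arrays for 1 probe set but not between probe sets, so members are not ranked by level. Of the 10 progenitor markers used to check the cell line, 7 lay above the floor on both arrays and 1, MPO, on the siRNA-Tbet array only; the floor is the median signal of 146. CD34, the stem cell antigen, had signals of 17130 and 15839 with siRNA-Tbet and siRNAc. KIT lay below the floor on both arrays (61.6 and 28.9), MPO was dim (210 and 127), and CD33 had no probe set of its own in the table used here. Among markers of other cell types, CD14 (4.54 and 6.34), EPCAM (10.1 and 8.76) and PF4 (20.8 and 96.2) lay below the floor. CD3E, MS4A1, HBB, KRT18 and COL1A1 lay above it on at least 1 array, with no signal above 610 at the probe set chosen for each. A difference in a bulk culture cannot tell fewer cells with a transcript from less transcript per cell.

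The AP-1 genes lay on both sides of 0 and mostly below 1.5-fold. Signals below the floor were raised to it before a ratio was taken, and probe sets above it on at least 1 array are called measured. Of the 22 probe sets, 19 were measured, 15 of them above the floor on both arrays, and they covered 8 of the 10 genes. With siRNA-Tbet, 12 of the 19 were higher and 7 lower, with a median log2 ratio of 0.09, beside -0.01 and 48.4% higher over all 23471 measured probe sets with 1 gene. A single probe set, of ATF2, passed 1.5-fold. That is 1 of 19, where 6.10% of all measured probe sets passed 1.5-fold in either direction and 2.87% as higher. With 1 probe set per gene, 5 of 8 members were higher and 3 lower, where 46.5% of all 12309 measured genes were higher. The median log2 ratio of these members was 0.07 against -0.02 over all measured genes, and 0 of 8 passed 1.5-fold against 5.00% of genes. Of the 19, 14 lay within the central 90% of measured probe sets of like signal (their signal decile), 4 lay above it and 1 below it, where by construction 90% of all measured probe sets lie within. The 4 probe sets above the floor on 1 array only had to differ in the direction of that array. FOSL2 218881_s_at and ATF2 1555146_at were of this kind, could only come out higher, and are among those above the central 90%. Among the 15 above it on both, 9 were higher and 6 lower, and log2 ratios ran from -0.57 (FOSL1) to 0.57 (ATF2).

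**Figure D1:**
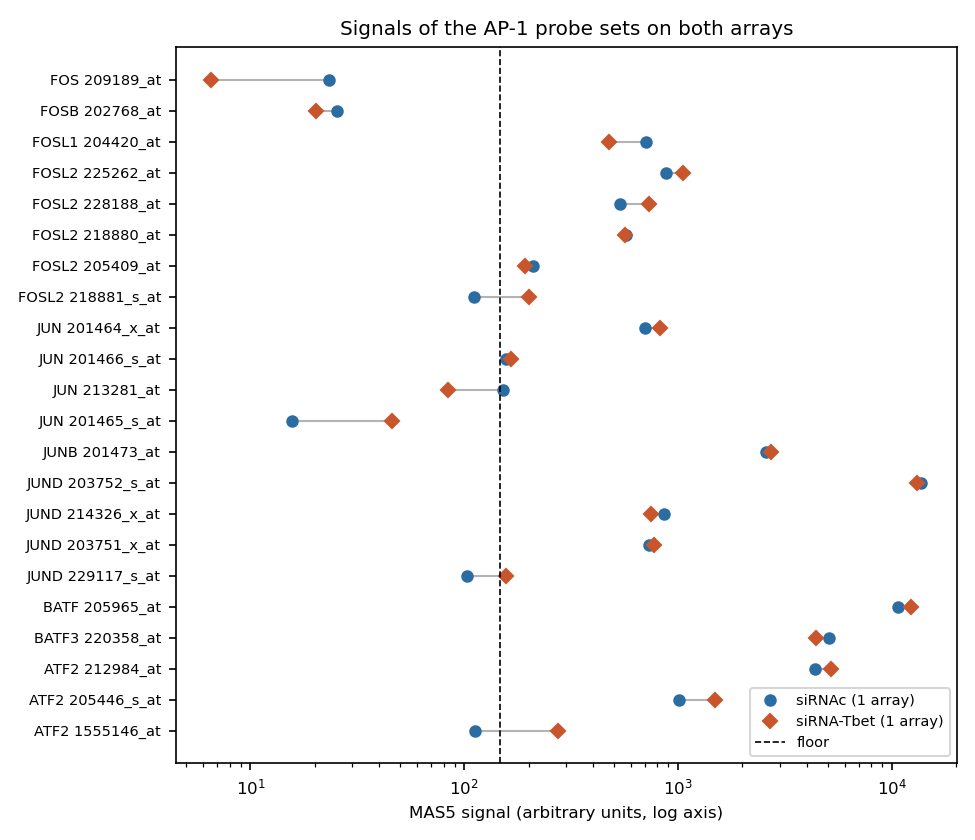
MAS5 signal of each of the 22 AP-1 probe sets (x axis, arbitrary units, log axis) on the siRNAc array (circles) and the siRNA-Tbet array (diamonds), 1 array each, with the floor of 146 as a dashed line. Both FOS and FOSB signals lie left of the line, and the 2 symbols nearly coincide for JUNB and for the brightest JUND probe set.

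FOS and FOSB, the classical inducible partners of JUN, were below the floor after 12 h of interleukin-18 with either siRNA. The only FOS probe set (209189_at) had signals of 6.55 with siRNA-Tbet and 23.4 with siRNAc. The only FOSB probe set (202768_at) had 20.3 and 25.3. All 4 values are far below the floor of 146, where MAS5 signals are noisy, so no fold is given for either gene.

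The FOS-related antigens FOSL1 and FOSL2, which form more lasting dimers with JUN proteins, were both measured and lay on opposite sides of 0. FOSL1 (FRA-1), read by 204420_at, read 473 with siRNA-Tbet and 704 with siRNAc. It was thus 1.49-fold lower, just inside the 1.5-fold bound, and the lowest ratio of any measured member. Its log2 ratio of -0.57 lay at percentile 3.98 of the 2347 measured probe sets in its signal decile, whose 5th and 95th percentiles were -0.55 and 0.51. FOSL1 has no other probe set in the table to set beside it.

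FOSL2 (FRA-2) was read by 5 probe sets, which did not point the same way. The brightest, 225262_at, had signals of 1052 and 879 with siRNA-Tbet and siRNAc, or 1.20-fold higher. Probe set 228188_at had 730 and 533, or 1.37-fold higher, at percentile 95.5 of its decile. Both of these lay on the higher side, but the next did not: 218880_at had 562 and 571, a log2 ratio of -0.02 (0.00093 after quantile normalization). Probe set 205409_at had 192 and 210, a log2 ratio of -0.13. The dimmest, 218881_s_at, had 201 with siRNA-Tbet and 111, below the floor, with siRNAc, which makes it at least 1.38-fold higher. In all, 3 of 5 FOSL2 probe sets were higher and 2 lower, with a median log2 ratio of 0.26. The dimmest was measured only through the siRNA-Tbet array and so could only come out higher. Of the 4 above the floor on both arrays, 225262_at and 228188_at were higher, and 218880_at and 205409_at lower.

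The JUN proteins are the core of every classical AP-1 dimer. JUNB and the brightest probe set of JUND had nearly the same signals on both arrays, while dimmer probe sets of JUND and JUN differed more and in both directions. JUNB, often a restraint on JUN activity, had 2706 with siRNA-Tbet and 2588 with siRNAc at its only probe set, 201473_at, or 1.05-fold higher. JUND, the member with the most constant expression in many cell types, had 13115 and 13744 at its brightest probe set, 203752_s_at, or 1.05-fold lower. Its other probe sets split: 203751_x_at had 774 and 729, and 214326_x_at had 747 and 859. Probe set 229117_s_at of JUND had 156 with siRNA-Tbet and 103, below the floor, with siRNAc. This last one could only come out higher, and its log2 ratio of 0.09 is a lower bound (0.59 without the floor). The 4 JUND log2 ratios ran from -0.20 to 0.09, with a median of 0.01. The 3 JUND probe sets above the floor on both arrays gave -0.07, -0.20 and 0.09. The suffix _x_at marks probes that can cross-hybridise, so those values are uncertain.

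JUN itself was read by 4 probe sets, and most of them were dim. Probe set 201464_x_at had signals of 819 with siRNA-Tbet and 700 with siRNAc, or 1.17-fold higher. Probe set 201466_s_at had 165 and 156, close to the floor. Probe set 213281_at had 84.3, below the floor, and 152, so it could only come out lower. Probe set 201465_s_at lay below the floor on both arrays (46.0 and 15.6). With the floor, the log2 ratios of the 3 measured JUN probe sets were 0.23, 0.08 and -0.05, all within the central 90% of their signal deciles. The -0.05 is a bound: 213281_at was at least 1.04-fold lower, and its log2 ratio without the floor was -0.85. The 0.23 rests on a probe set that can cross-hybridise.

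BATF and BATF3 lay on opposite sides of 0 as well, each on a single probe set. BATF, read by 205965_at, had 12257 with siRNA-Tbet and 10662 with siRNAc, or 1.15-fold higher. Its log2 ratio of 0.20 lay at percentile 91.9 of its decile, in which the 95th percentile was 0.24. BATF3, a factor needed for the cross-presenting dendritic cells known as cDC1, had 4396 and 5083 at 220358_at, or 1.16-fold lower. Its log2 ratio of -0.21 lay at percentile 10.0 of its decile. Neither left the central 90% of probe sets with like signal. In the RefSeq assembly FOS, JDP2 and BATF are consecutive protein-coding genes. In that run FOS was below the floor, JDP2, a repressor that pairs with JUN, was 1.19-fold lower (1028 against 1226), and BATF was higher. ATF3 and BATF3 are likewise separated by 1 protein-coding gene, and ATF3 was 1.11-fold lower (2112 against 2338) at its brightest probe set, and its other probe sets gave log2 ratios of 0.09 and 0.70.

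ATF2, the member that p38 and JNK kinases activate by phosphorylation, had the highest median over probe sets of the family (log2 ratio 0.57). That median counts 1555146_at, which was above the floor with siRNA-Tbet only. The 2 ATF2 probe sets above the floor on both arrays gave 0.25 and 0.57. With 1 probe set per gene, FOSL2 was marginally higher than ATF2 (0.26 against 0.25). The brightest probe set of ATF2, 212984_at, read 5195 with siRNA-Tbet and 4381 with siRNAc, or 1.19-fold higher. The next, 205446_s_at, had 1494 and 1006, or 1.49-fold higher, at percentile 98.3 of its decile. The dimmest, 1555146_at, had 273 with siRNA-Tbet and 112, below the floor, with siRNAc. It was thus at least 1.87-fold higher and is the probe set that passed 1.5-fold. All 3 ATF2 log2 ratios (0.25, 0.57 and 0.90) were above 0, as in 14.7% of the 1664 genes with 3 measured probe sets. The dimmest was measured only through the siRNA-Tbet array and so could only come out higher. It adds no support to the direction of the other 2. The ratio grew as the signal fell, and the central 90% of ratios is also wider at low signal. Probe sets of 1 gene share the same RNA and array, so they are not replicates of the knock-down.

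**Figure D2:**
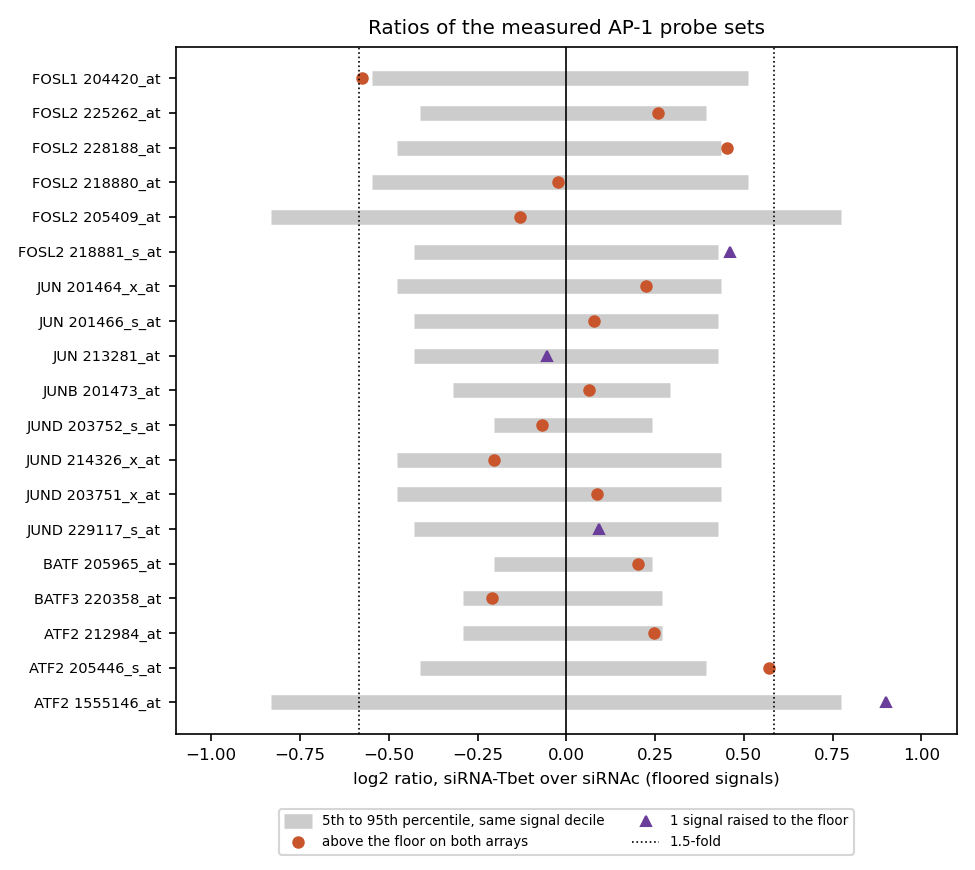
Log2 ratio (siRNA-Tbet over siRNAc, x axis) of the 19 measured AP-1 probe sets, with circles above the floor on both arrays and triangles where 1 signal was raised to the floor. Grey bars span the 5th to 95th percentile of measured probe sets of the same signal decile and dotted lines mark 1.5-fold; 14 points lie within their bar, 4 above it (2 of ATF2, 2 of FOSL2) and 1 below it (FOSL1).

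**Figure D3:**
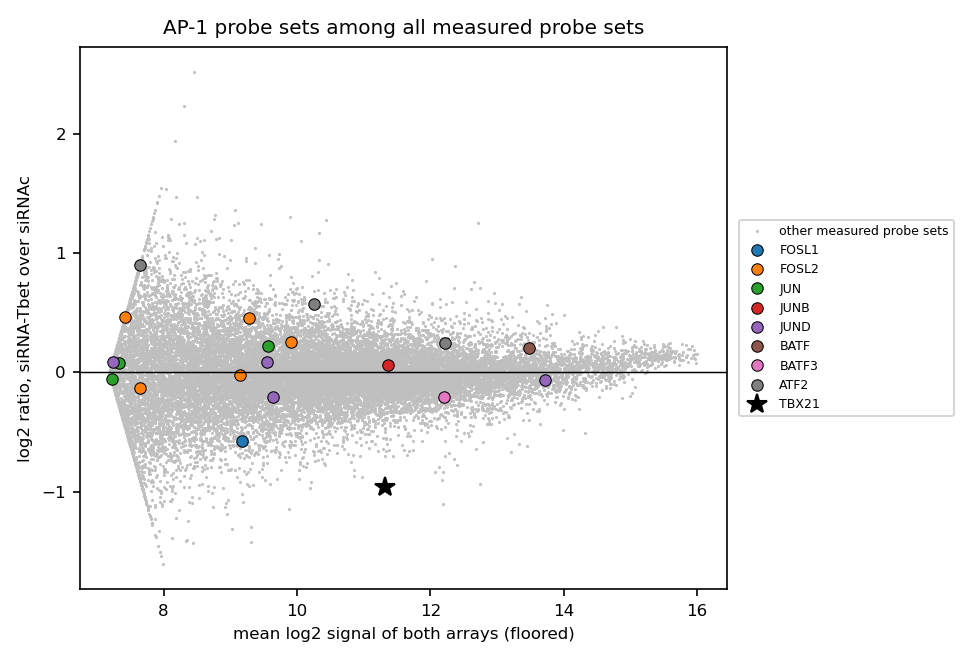
Log2 ratio (y axis) against mean log2 signal of both arrays (x axis, floored) for all 23471 measured probe sets (grey), with AP-1 members coloured by gene and TBX21 as a star. The AP-1 points lie within the grey cloud on both sides of 0, and TBX21 at -0.96 lies below it at its signal.

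Of the 4 members with more than 1 measured probe set, those of FOSL2, JUN and JUND fell on both sides of 0 and those of ATF2 did not. For JUN this rests on 213281_at, which was above the floor with siRNAc only and could only come out lower. The 2 JUN probe sets above the floor on both arrays were both higher (log2 ratios 0.08 and 0.23), as were the 2 of ATF2 (0.25 and 0.57). Agreement in sign was thus not particular to ATF2. For the other measured members, FOSL1, JUNB, BATF and BATF3, no second probe set was at hand.

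The wider AP-1 pathway was described by 7 gene lists, each gene by its brightest probe set. Across them, 5 of 106 measured genes passed 1.5-fold, beside 5.00% of all measured genes. Among these, DDIT3 and EDN1 were above the floor on 1 array only, which fixed their direction. The counts of higher and lower genes below stand beside 46.5% higher over all 12309 measured genes.

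Other bZIP factors, the proteins that can share partners or sites with AP-1, gave a median log2 ratio of -0.10, with 14 of 19 genes measured, with 4 higher and 10 lower. Of these 1 passed 1.5-fold, DDIT3 (CHOP), a stress-induced dimer partner that was at least 2.57-fold higher (376 against 106, which is below the floor). DDIT3 was measured only through the siRNA-Tbet array and so could only come out higher. BATF2, an interferon-induced relative of BATF, was 1.42-fold lower (405 against 576). MAF and BACH2 lay below the floor.

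The MAP kinases that reach AP-1 had a median of -0.06 over 20 measured of 26 genes, with 9 higher, 11 lower and 0 past 1.5-fold. The largest ratios belonged to MAP3K11, a kinase upstream of JNK, at 1.26-fold lower (1722 against 2176), and MAPKAPK2, a target of p38, at 1.26-fold lower (4266 against 5367). The other probe sets of MAPKAPK2 gave 0.05 and 0.01 on the log2 scale.

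The factors that switch on FOS and JUN transcription had a median of -0.14 over all 10 genes, with 3 higher and 7 lower. ELK4, a ternary complex factor that binds the FOS promoter with SRF, was the 1 gene past 1.5-fold. Its brightest probe set had 3380 with siRNA-Tbet and 6315 with siRNAc, or 1.87-fold lower, and the others gave -0.65, -0.05, 0.36 and -0.07 on the log2 scale. MEF2D, which acts on the JUN promoter, was 1.40-fold lower (558 against 779), while its other probe sets gave log2 ratios of 0.07 and -0.03. SRF was 1.07-fold lower (2489 against 2672). Thus neither large ratio in this list was shared by all probe sets of its gene.

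Genes for AP-1 turnover and coregulators had a median of 0.04 over 8 measured of 9 genes, with 6 higher, 2 lower and 0 past 1.5-fold. FBXW7, a ubiquitin ligase subunit that marks JUN for degradation, was 1.16-fold lower (888 against 1032), with all 3 probe sets on that side. DET1, part of another JUN ligase, was 1.11-fold higher (832 against 747), but -0.56 on the log2 scale at its second probe set.

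Factors that bind next to AP-1 at composite sites had a median of 0.01 over 10 measured of 11 genes, with 6 higher, 4 lower and 0 past 1.5-fold. RUNX3, a lineage factor of cytotoxic lymphocytes, was 1.33-fold lower (7215 against 9631), with -0.24 on the log2 scale at its second probe set. IRF8, a partner of BATF3 in dendritic cells, was 1.30-fold lower (713 against 924). IRF4, the partner of BATF in T cells, was 1.06-fold higher (1028 against 972).

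Other immediate early genes, which share the inducing signals of FOS and JUN, had a median of -0.13 over 20 measured of 28 genes, with 8 higher and 12 lower. SGK1, a survival kinase, was 1.60-fold lower (675 against 1083), and DUSP2, a phosphatase that switches off MAP kinases, was 1.52-fold higher (1195 against 786). These were the 2 genes of the list past 1.5-fold at the probe set used for each gene. TRIB1, a pseudokinase, was 1.35-fold higher (1130 against 837), and ZFP36L1, which destabilises mRNAs, was 1.34-fold lower (2322 against 3109), with -0.11 at its second probe set. EGR1, which shares serum response elements with FOS, was below the floor with siRNA-Tbet and just above it with siRNAc (107 against 169).

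Textbook targets of AP-1 had a median of 0.04 over 24 measured of 32 genes, with 14 higher and 10 lower. EDN1, encoding endothelin-1, was the 1 gene past 1.5-fold, at least 1.92-fold lower (128, below the floor, against 281), while its second probe set gave a log2 ratio of -0.17. Its brightest probe set was measured only through the siRNAc array and so could only come out lower. PLAUR, the urokinase receptor, was 1.32-fold higher (1837 against 1394) at its brightest probe set but -0.19 and -0.47 at the others. CDKN1A, the cell cycle inhibitor p21, was 1.29-fold lower (3304 against 4264), and CD69, an early activation antigen, was 1.27-fold higher (8794 against 6923). MMP1 and MMP3 lay below the floor on both arrays.

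**Figure D4:**
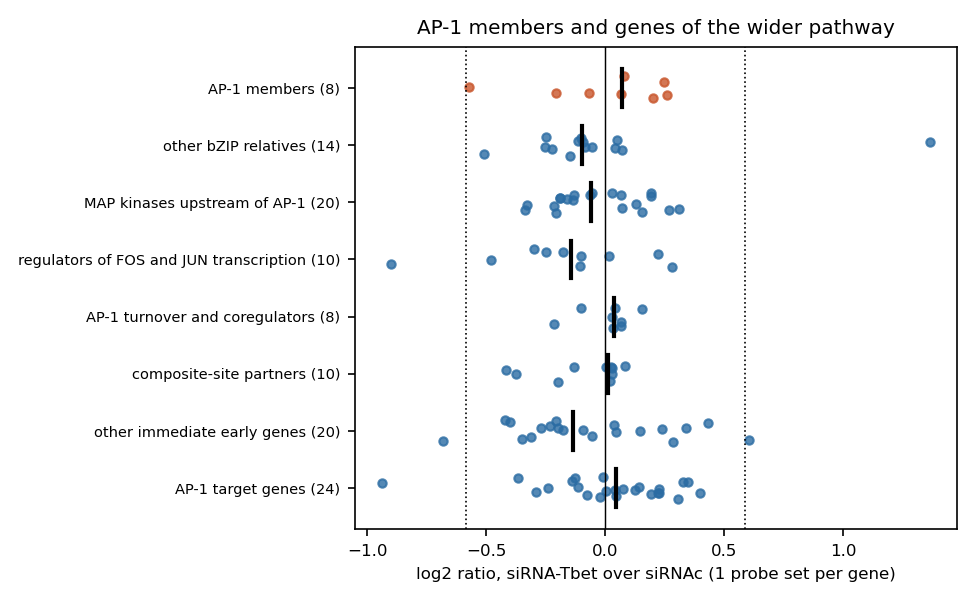
Log2 ratio (siRNA-Tbet over siRNAc, x axis) of each measured gene, 1 probe set per gene, for the AP-1 members and the 7 wider lists (measured genes in brackets); black bars are medians and dotted lines mark 1.5-fold. Medians lie between -0.14 and 0.07, and the 8 AP-1 members all lie inside the dotted lines.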

How the data were processed

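Total RNA of 2 KG1 samples was hybridised to 1 array each. The deposited values are linear signal intensities made by the authors with MAS5, per the submitters' processing notes, with no version stated in those notes. Both arrays had a trimmed mean of 1000.1 (2% removed at each end), and no further scaling was applied. Symbols came from the platform annotation, updated through Entrez numbers against RefSeq (41043 of 41097 matched). Ratios were computed in Python 3.11.15 (pandas 2.3.3) as log2 of siRNA-Tbet over siRNAc, with 1 common floor, the higher of the arrays' medians (144 and 146). A gene was represented by its brightest measured probe set, avoiding _x_at where it had another. Deciles were of mean log2 signal over measured probe sets. The procedure was tested on simulated data. All members were named, with the 2 largest ratios of each wider list (4 for immediate early and target genes). Other genes were chosen after their values were seen: SRF, IRF4, EGR1, MAF, BACH2, ATF3, JDP2, MMP1, MMP3, PHLDA1, NFATC2, MAP2K4 and CREBBP. The members and lists were chosen with earlier results of these data known. With 1 array per group, the number of arrays limits the precision, and low MAS5 signals are noisy.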

Additional observations from a re-analysis of the deposited data

How the results depend on the processing

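The median log2 ratio of the members was 0.09 over probe sets and ran from 0.06 to 0.20 (floor at the 75th percentile, 7 probe sets). Over genes it was 0.07 and ran from -0.0016 (no floor) to 0.27 (second probe sets, 4 genes), so its sign is not fixed. TBX21 stayed between -0.96 and -0.94. Counts past the fold depended on the floor and the fold. The count of member probe sets, 1 of 19, was 2 with median scaling and 2 with a lowess trend removed, 4 of 20 when the floor was the 25th percentile, 6 of 22 without a floor and 0 of 7 when it was the 75th. It was 5 when a 25% higher value of either array sufficed (22.3% of all measured probe sets) and 0 at 2-fold (0.656% of all). Of all measured probe sets, 6.22% passed 1.5-fold with median scaling and 6.17% with a lowess trend removed. The share was 22.4% with the lower floor, 32.6% without one and 1.11% with the higher floor. The count of member genes, 0 of 8, was 1 of 10 with no floor (29.4% of all genes) and 1 of 8 when 25% sufficed (18.9% of all genes). The wider lists had 10 of 117 genes past 1.5-fold with the lower floor (21.5% of all genes), 13 of 123 without one (29.4%) and 1 of 82 with the higher floor (0.925%), beside 5 of 106 (5.00%). The lists' medians kept no fixed order across alternatives. The 4 member probe sets above the floor on 1 array only moved further from 0 with the lower floor and without one. Under both, the log2 ratio of JUN 213281_at went from -0.05 to -0.85 and that of JUND 229117_s_at from 0.09 to 0.59. FOSL2 218881_s_at went from 0.46 to 0.86 and ATF2 1555146_at from 0.90 to 1.29. Of the 19 measured probe sets, FOSL2 218880_at changed sign under 1 alternative, quantile normalization (0.00093). The cause was not tested. No paired analysis was possible because each group has 1 array.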

Other observations

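CD44, the hyaluronan receptor and one of the AP-1 target genes, was picked after its values were seen because all 11 of its measured probe sets were higher with siRNA-Tbet. The brightest read 23852 with siRNA-Tbet and 20432 with siRNAc, or 1.17-fold higher, and the other 10 had log2 ratios from 0.13 to 0.71. Of the 8 genes with 10 or more measured probe sets, 1 (12.5%) had all of them higher, and that gene is CD44. These probe sets share the same RNA and overlapping transcripts and are not replicates.

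MAPK9, which encodes the JUN kinase JNK2, was also picked after its values were seen. Its 3 probe sets were all lower, with signals of 3400 against 3931 at the brightest and log2 ratios of -0.21, -0.23 and -0.13. Of genes with 3 measured probe sets, 18.6% had all of them lower. MAPK8, which encodes JNK1 and was named beside it, had 5 measured probe sets with log2 ratios from -0.13 to 0.13.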
